A study of Mus musculus with 6 samples.

Results

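The 10 genes described here encode CXC chemokines (Cxcl1, Cxcl2, Cxcl5, Cxcl9, Cxcl10, Cxcl11, Cxcl12, Cxcl14 and Cxcl16) and fractalkine (Cx3cl1). They were chosen by gene name, and each of the 10 names matched a single entry among the 55357 genes of the deposited table. The samples were primary cortical astrocytes from mouse embryos of the C57BL/6 strain. In 3 cultures, the cells had been transfected with a plasmid in which the CMV promoter drives BRAF carrying the K499E substitution and a FLAG tag (KE), and they were harvested 48 hours later. The other 3 cultures were not transfected (NT) and received no plasmid, so effects of BRAF KE and of transfection itself cannot be told apart in this comparison. The CMV promoter is active in many cell types and does not restrict expression to astrocytes. The methods describe shaking of the primary dishes and replating before use, a step that loosens other glia. The labels do not say whether the 3 cultures of a group came from separate preparations, and p-values measure only the spread between these cultures.

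Chemokines are small proteins that guide migrating cells through G protein–coupled receptors, and their families are named for the spacing of conserved cysteines near the N terminus. In the brain, astrocytes and microglia make many of them during inflammation, infection and injury. Cxcl1, Cxcl2 and Cxcl5 bind CXCR2 and attract neutrophils. Cxcl9, Cxcl10 and Cxcl11 are induced by interferons, bind CXCR3 and attract activated T cells and natural killer cells. Cxcl12, the ligand of CXCR4 and ACKR3, and Cxcl14 are made in many tissues without inflammation. Cxcl16 and Cx3cl1 are made as membrane proteins on a mucin stalk, which the proteases ADAM10 and ADAM17 cut to release the chemokine. The receptor of Cxcl16 is CXCR6, and that of Cx3cl1 is CX3CR1, which in the brain is found mainly on microglia.

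Upstream DNA is shown for the 4 chemokine genes of the chromosome 5 groups that the RefSeq promoter table holds. These 4 were chosen because all were upregulated and 3 of them held a motif of an inducible factor. Nothing on motifs and upregulation is therefore read from them. The table has entries for 7 of the 10 genes. Cxcl5, Cxcl11 and Cxcl16 were not matched. Each sequence gives the 250 bases before the RefSeq start site, 5′ to 3′ on the strand of the gene. The table was built on GRCm38.p6, and each entry was placed on GRCm39 by its single exact match. Capitals mark the NF-kappaB motif or the core of the interferon-stimulated response element (ISRE), which is GAAA, any 2 bases and GAAA again.
Cxcl1: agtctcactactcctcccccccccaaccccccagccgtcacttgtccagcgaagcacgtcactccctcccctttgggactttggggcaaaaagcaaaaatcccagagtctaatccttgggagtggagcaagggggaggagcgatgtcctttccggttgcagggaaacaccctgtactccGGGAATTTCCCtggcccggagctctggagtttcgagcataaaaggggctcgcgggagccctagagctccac
Cxcl2: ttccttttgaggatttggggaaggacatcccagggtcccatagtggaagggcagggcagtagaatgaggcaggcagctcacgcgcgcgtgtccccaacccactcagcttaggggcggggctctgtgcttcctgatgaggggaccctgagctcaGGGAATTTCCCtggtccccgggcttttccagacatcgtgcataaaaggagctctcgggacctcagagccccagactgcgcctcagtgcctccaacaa
Cxcl10: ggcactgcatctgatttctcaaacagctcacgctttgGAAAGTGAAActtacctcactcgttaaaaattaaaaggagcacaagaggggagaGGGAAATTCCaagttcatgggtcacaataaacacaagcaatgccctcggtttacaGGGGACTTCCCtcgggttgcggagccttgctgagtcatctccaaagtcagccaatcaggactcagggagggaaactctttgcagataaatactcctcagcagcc
Cxcl9: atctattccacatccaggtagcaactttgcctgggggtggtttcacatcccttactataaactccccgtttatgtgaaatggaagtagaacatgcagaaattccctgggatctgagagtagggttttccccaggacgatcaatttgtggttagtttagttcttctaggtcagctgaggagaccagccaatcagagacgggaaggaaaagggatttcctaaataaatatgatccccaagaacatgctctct
On GRCm39 these lie at chr5:91038854-91039103 on the plus strand for Cxcl1, chr5:91051508-91051757 on the plus strand for Cxcl2, chr5:92496749-92496998 on the minus strand for Cxcl10 and chr5:92475939-92476188 on the minus strand for Cxcl9. Both strands were searched for the NF-kappaB motif, for the ISRE core and for TTCNNNGAA, the gamma-activated site of interferon-induced genes. Cxcl1 and Cxcl2 held the same run, GGGAATTTCCC, from 71 to 61 bases and from 97 to 87 bases before the start, in which NF-kappaB motifs of the 2 strands overlap. Cxcl10 held the ISRE core GAAAGTGAAA from 213 to 204 bases before the start. It also held NF-kappaB motifs from 159 to 150 bases and, as 2 overlapping matches, from 104 to 94 bases. In Cxcl9 none of the 3 motifs was found in this window. Among the 3 matched genes not shown, Cxcl14 held GAAACAGAAA and TTCTGAGAA, and Cxcl12 and Cx3cl1 held none of the 3. In the comparison below, Cx3cl1 was upregulated, and Cxcl14 and Cxcl12 were not called as changed. Of the 32851 promoters in the table, 7.25% held the NF-kappaB motif in the same 250 bases, 2.98% held the ISRE core and 7.02% held TTCNNNGAA. A match of letters is a description of the sequence and was not measured as a bound site.

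The deposited values are gene counts after DESeq2 normalization. Their totals were similar in all cultures, from 30472429 to 30895529, and the approximate depth was 24500000 to 34100000 reads, lowest in KE replicate 2. Braf, the transfected gene, was 34933 to 40978 in KE and 811 to 946 in NT. In the limma comparison of KE with NT, 25.3% of all 15280 tested genes were upregulated and 26.0% were downregulated, and counts over marker and gene lists are to be read against these shares. Gfap, the intermediate filament of astrocytes, was 30696 to 32167 in KE and 16537 to 17745 in NT, and of 12 astrocyte markers 8 were upregulated, 2 were downregulated and none was at 0 in any culture. Markers of microglia and macrophages were also present. All 16 of them, Cx3cr1, Itgam and Mrc1 included, were downregulated in KE, with summed levels of 45549 to 52644 normalized counts in NT and 5483 to 7578 in KE, and none was at 0 in any culture. In bulk RNA, fewer cells of a type and less RNA per cell cannot be told apart. Whether the lower level of these markers has a part in the chemokine results was not tested. Of 7 neutrophil and lymphocyte markers, 5 were at 0 in all cultures and none passed the expression filter.

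All 10 chemokine genes passed the filter of a mean of at least 10 normalized counts over the 6 cultures. Cxcl9 and Cxcl11, whose NT means were under 10, passed it only through their KE values. The groups were compared with limma on log2(normalized count + 1), and p-values were adjusted over the 15280 tested genes by the Benjamini-Hochberg method. By this test, 6 of the 10 were upregulated in KE at an adjusted p-value under 0.05, 2 were downregulated and 2 were not called. Of all tested genes, 51.3% were called, 25.3% as upregulated and 26.0% as downregulated, so the share of the 10 called has to be read against a high background. The median log2FC was 1.64 over the 10 genes and 0.0018 over all tested genes. Every KE value lay above every NT value for the 6 upregulated genes and below for the 2 downregulated genes. KE and NT did not overlap in 59.9% of all tested genes, with KE wholly above in 30.1% and wholly below in 29.9%. Cxcl9 and Cxcl11 are among the 6 upregulated genes, the genes without overlap and the genes behind the median of 1.64. Nothing is read from their part in these figures. Exact permutation tests of single values, used for sums and ratios, reach no two-sided p under 0.1 at this group size.

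**Figure D1:**
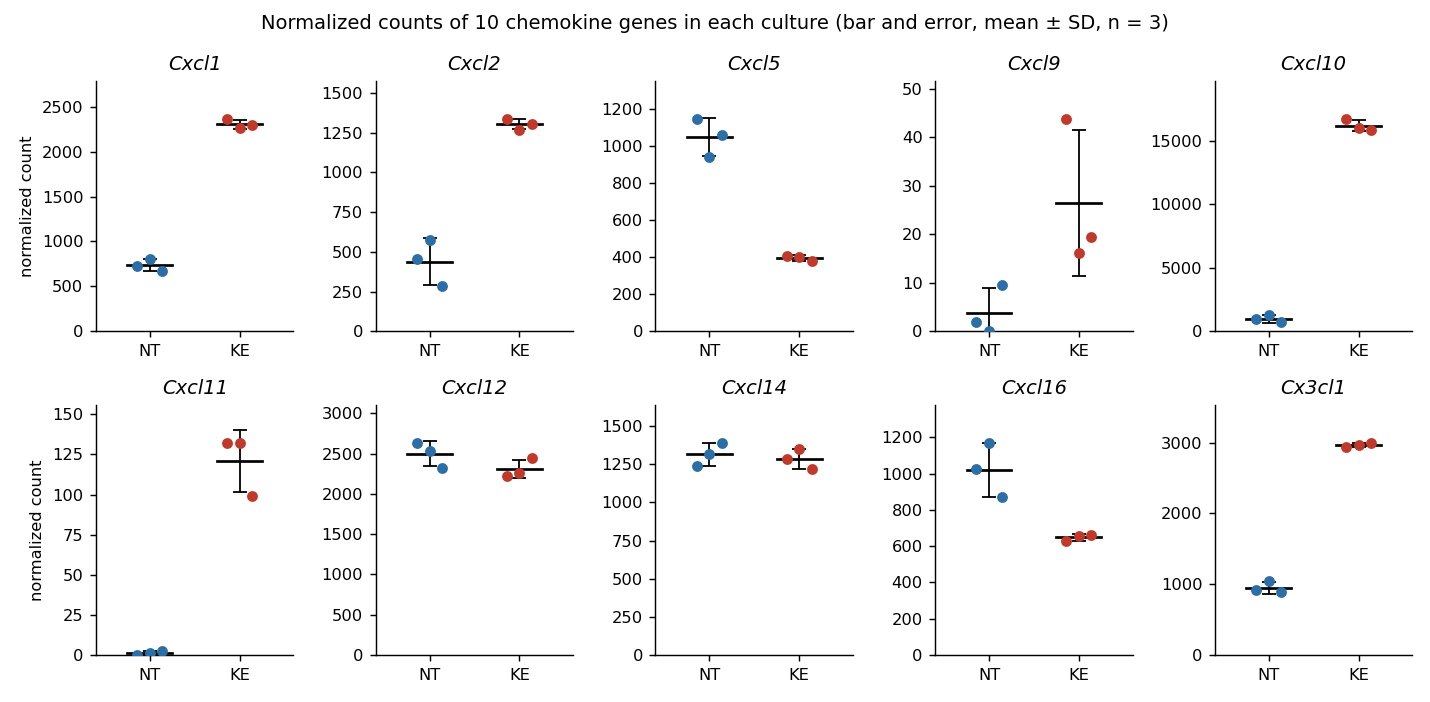
Normalized counts of the 10 chemokine genes in each NT and KE culture, with a linear axis from 0 for each gene. Points are cultures, and the bar and error give the mean ± SD (n = 3). The groups are apart in 8 genes and overlap in Cxcl12 and Cxcl14.

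The largest rise in level was that of the interferon-induced CXCR3 ligand Cxcl10 (ENSMUSG00000034855; GRCm39 chromosome 5, minus strand, 92494497 to 92496748). KE replicates 1 to 3 had 16732, 16037 and 15879 normalized counts, against 942, 1287 and 689.9 in NT replicates 1 to 3. The KE cultures were close to one another, while the highest NT culture was well above the lowest. Mean levels were 16216 ± 454 for KE and 973 ± 299.9 for NT (SD, n = 3 each), a 16.7-fold ratio. The log2FC was 4.10 (standard error 0.17, limma adjusted p = 1.8e-08). Exons of Art3, an ADP-ribosyltransferase gene on the opposite strand, overlap those of Cxcl10. Art3 was 123 to 167 in KE and 16.3 to 30.9 in NT, far below Cxcl10 in each culture. The library kit keeps strand, but whether the counting used it is not given in the sources used here.

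Cxcl11 (ENSMUSG00000060183; minus strand, 92507403 to 92513344), a CXCR3 ligand of high affinity, lies next to Cxcl10. C57BL/6 mice are known to carry a frameshift in this gene, so its transcript is not a measure of protein. KE replicates had 132, 132 and 98.9 normalized counts, and NT replicates had 0, 1.23 and 2.27. The NT values are near what a single read is worth, so the transcript was hardly detected without transfection. The log2FC was 5.96 (standard error 0.44, adjusted p = 1.1e-06 by limma). It rests on the pseudocount of 1, being 6.49 with 0.5 and 4.36 with 5, and no fold is given.

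Cxcl9 (ENSMUSG00000029417; minus strand, 92469206 to 92475945), the CXCR3 ligand most dependent on interferon gamma, was the lowest of the 3 in KE. KE replicates had 43.7, 16.2 and 19.5 normalized counts, and NT replicates had 1.83, 0 and 9.59. The groups did not overlap, but the lowest KE value was only 16.2 against a highest NT value of 9.59. The log2FC of 3.01 had a standard error of 0.76 (95% confidence interval 1.33 to 4.69, adjusted p = 0.0067 by limma). Single cultures and the pseudocount moved it, to 2.20 without NT replicate 2, 3.90 without NT replicate 3 and 1.89 with a pseudocount of 5. In KE, Cxcl10, Cxcl11 and Cxcl9 stood at 7201, 31.9 and 8.76 normalized counts per kilobase of exon, so the CXCR3 ligand transcripts were almost entirely Cxcl10.

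Among the CXCR2 ligands, Cxcl1 and Cxcl2 were upregulated to a similar extent, whereas Cxcl5 was downregulated. Cxcl1 (ENSMUSG00000029380; chromosome 5, plus strand, 91039094 to 91040974) was 2362, 2262 and 2295 in KE and 722, 807 and 672 in NT. The KE cultures lay within a narrow range about 3.14-fold above NT in the mean. The log2FC was 1.65 (standard error 0.08, adjusted p = 3.5e-08 by limma). Cxcl2 (ENSMUSG00000058427; plus strand, 91051730 to 91053797), the next gene for a chemokine along the chromosome, was 1336, 1271 and 1308 in KE and 455, 576 and 285 in NT. Its NT values spread more than those of Cxcl1, with a coefficient of variation of 33.3% against 9.31%. The log2FC of Cxcl2 was 1.63 (standard error 0.19, adjusted p = 4.1e-05 by limma). Of the 31-base words in Cxcl2 transcripts, 7.59% also occur in Cxcl3, which was at most 5.95 normalized counts in any culture. For no other of the 10 genes did this share exceed 2.66%.

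Cxcl5 (ENSMUSG00000029371; plus strand, 90907186 to 90909483) was 404, 403 and 378 in KE and 1145, 941 and 1059 in NT. Every KE culture was below every NT culture, and the NT mean was 2.66-fold that of KE. The log2FC was -1.40 (standard error 0.09, adjusted p = 3.5e-07 by limma). The ratio of Cxcl1 to Cxcl5 within a culture was 5.62 to 6.07 in KE and 0.631 to 0.857 in NT, and that of Cxcl2 to Cxcl5 was 3.16 to 3.46 in KE and 0.270 to 0.612 in NT. The ratio of Cxcl1 to Cxcl2 was 1.75 to 1.78 in KE, inside the NT range of 1.40 to 2.35. For each ratio to Cxcl5 the exact permutation test gave p = 0.1, the smallest possible, and an adjusted p of 0.167 over 5 ratios. For the ratio of Cxcl1 to Cxcl2 the exact permutation p and its adjusted value were both 1.

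**Figure D2:**
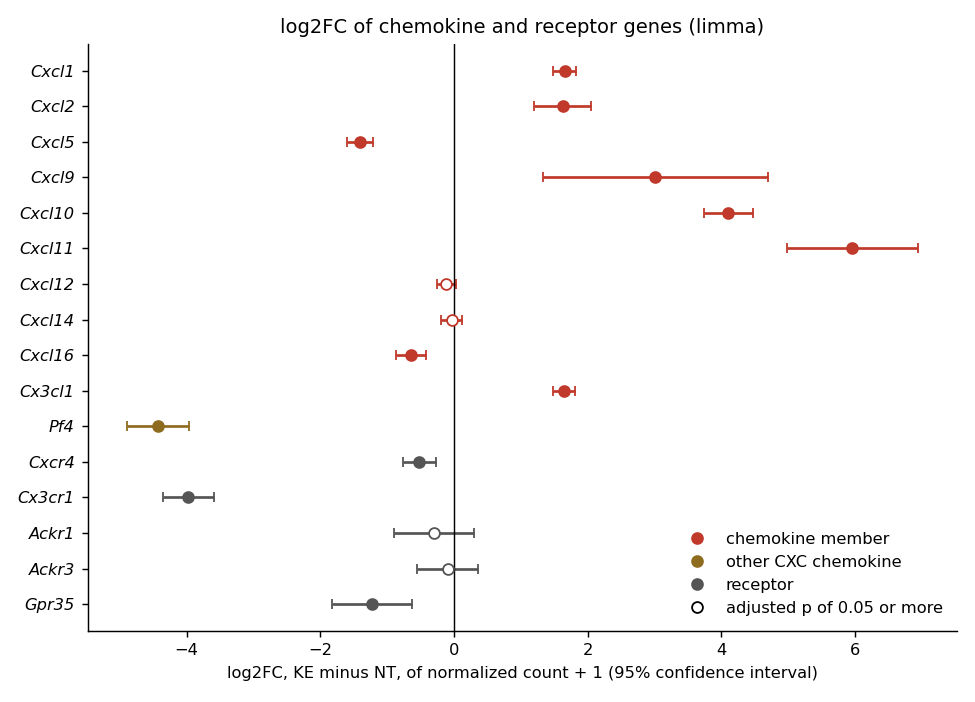
log2FC (KE minus NT, of normalized count + 1) with 95% confidence intervals from limma for the 10 chemokine genes, for Pf4 as the tested member of the other CXC chemokines, and for the 5 tested receptors. Filled points had an adjusted p under 0.05. Intervals are widest for Cxcl9 and Cxcl11, the least abundant of the 10.

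The 2 genes that were not called are the homeostatic chemokines. Cxcl12 (ENSMUSG00000061353; chromosome 6, plus strand, 117144945 to 117158328) was 2227, 2259 and 2440 in KE and 2633, 2537 and 2326 in NT. The highest KE culture lay above the lowest NT culture. The log2FC was -0.11, with a 95% confidence interval of -0.26 to 0.03 (adjusted p = 0.18 by limma). Cxcl14 (ENSMUSG00000021508; chromosome 13, minus strand, 56436352 to 56444603), a chemokine whose signaling receptor is debated, was 1286, 1348 and 1218 in KE and 1240, 1316 and 1390 in NT. The groups overlapped almost fully. The log2FC was -0.03, with an interval of -0.19 to 0.12 (adjusted p = 0.71 by limma). These intervals leave room for small changes in either gene.

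The membrane-bound chemokines moved in opposite directions. Cx3cl1 (ENSMUSG00000031778; chromosome 8, plus strand, 95498637 to 95509055), which in the adult brain is made mostly by neurons, was 2938, 2971 and 2997 in KE and 912, 1048 and 889 in NT. The KE values had a coefficient of variation of 0.996% and lay 3.13-fold above NT in the mean. The log2FC was 1.65 (standard error 0.07, adjusted p = 2.6e-08 by limma). Of 9 neuron markers, 7 were tested and 3 were called, against 51.3% of all tested genes. Tubb3 (log2FC 0.43) was upregulated, Map2 (-0.51) and Stmn2 (-0.58) were downregulated and 4 were not called. The summed level of the 9 was 6765 to 7190 in KE and 8801 to 9477 in NT. Most of this sum was Map2, with a mean of 4965 in KE and 7077 in NT. The part of neurons in the rise of Cx3cl1 was not tested.

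Cxcl16 (ENSMUSG00000018920; chromosome 11, minus strand, 70344517 to 70352620), which also serves as a scavenger receptor for oxidized lipids, was 628, 658 and 664 in KE and 1027, 1170 and 871 in NT. All KE cultures were below all NT cultures, with an NT mean of 1.57-fold that of KE. The log2FC was -0.64 (standard error 0.10, adjusted p = 3.3e-04 by limma). Exons of Med11 and Zmynd15 overlap Cxcl16 on the opposite strand, and neither was called (log2FC -0.13 and -0.04). The ratio of Cx3cl1 to Cxcl16 was 4.52 to 4.68 in KE and 0.888 to 1.02 in NT (exact permutation p = 0.1, the smallest possible, adjusted p = 0.167).

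Levels of different genes were compared per kilobase of merged exons. In NT, Cxcl5 was highest at 553 ± 54.0 (SD, n = 3) normalized counts per kilobase, followed by Cxcl10 (432 ± 133), Cxcl1 (390.1 ± 36.3) and Cxcl14 (384 ± 21.9), and each of these overlapped its neighbor in the order. Cxcl12 (299 ± 18.8) and Cx3cl1 (239 ± 21.7) came next without overlapping the gene above them, and Cx3cl1, Cxcl2 (212 ± 70.6) and Cxcl16 (199.6 ± 29.2) overlapped in turn. Cxcl9 and Cxcl11 were last, at 1.26 and 0.307. In KE, no neighbors in the order overlapped. Cxcl10 was highest at 7201 ± 202, followed by Cxcl1 (1226 ± 27.1), Cx3cl1 (748 ± 7.45), Cxcl2 (631 ± 15.8), Cxcl14 (375 ± 19.0), Cxcl12 (277 ± 13.8), Cxcl5 (208 ± 7.69) and Cxcl16 (127 ± 3.70). On this scale, Cxcl5 thus went from the top of the order in NT, where it overlapped Cxcl10, to rank 7 in KE. The order among close genes depends on the length used. With the canonical transcript as length, Cxcl10 led in NT as well, with values that overlapped those of Cxcl1. Cxcl5 was then at rank 3 in NT and rank 7 in KE. Without length scaling, Cxcl12 led in NT, and Cxcl5 was at rank 3 in NT and rank 8 in KE. All 10 genes had a larger coefficient of variation in NT than in KE, against 48.5% of 15269 tested genes. The 10 include Cxcl9 and Cxcl11, whose NT means were under 10, with a value of 0 in 1 NT culture each. These passed the filter only through their KE values, so nothing is read from their part of the count.

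**Figure D3:**
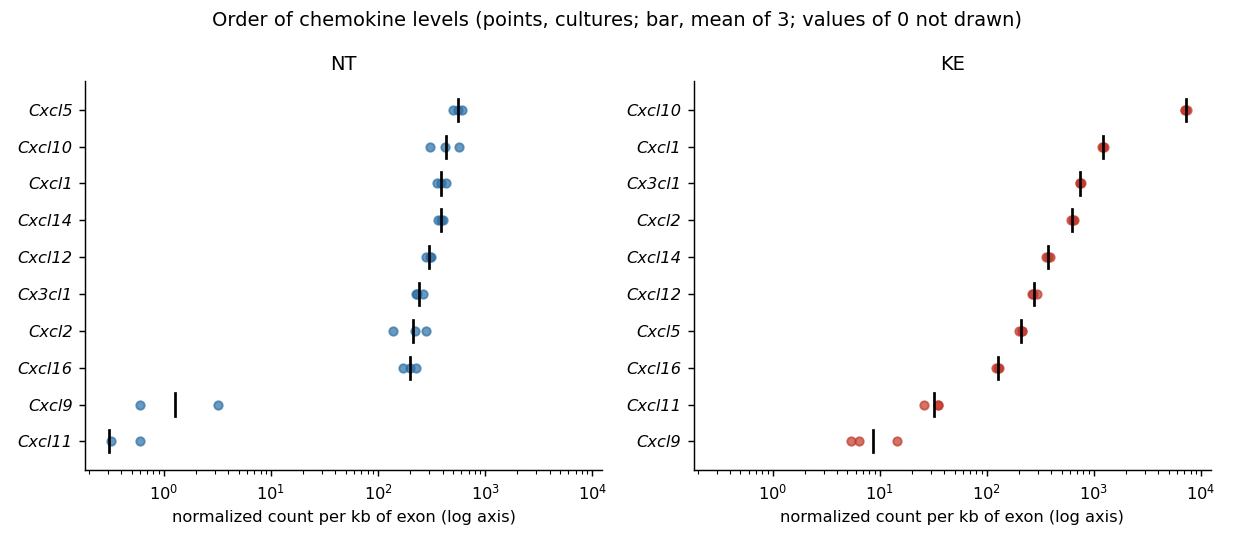
The 10 chemokine genes ordered by mean normalized count per kilobase of exon in NT (left) and KE (right), on a log axis. Points are cultures and bars are means of 3, and values of 0 are not drawn. Cxcl10 stands apart from the rest in KE, while the leading 8 genes lie between 199.6 and 553 on average in NT.

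The summed level of the 10 genes per kilobase was 10668 to 11099 in KE and 2442 to 2956 in NT, a ratio of means of 3.996. The exact permutation test gave p = 0.1, the smallest possible. Most of the rise was that of Cxcl10. Without it, the sum was 3610 to 3669 in KE and 2136 to 2385 in NT, a ratio of 1.59. Cxcl10 made up 66.5% ± 0.434 of the sum in KE and 15.7% ± 3.42 in NT (SD, n = 3 each). Cxcl5 fell from 20.6% ± 3.31 of the sum in NT to 1.92% ± 0.0553 in KE, and Cxcl12 from 11.1% ± 0.690 to 2.56% ± 0.171. These shares depend on the length used. Without length scaling, Cxcl5 made up 11.8% in NT and 1.43% in KE, and Cxcl12 made up 27.9% and 8.38%, both again smaller in KE. The smaller share of Cxcl12 came with a level that was not called as changed. Cxcl1 took 14.4% in NT and 11.3% in KE, but 8.16% and 8.36% without length scaling, so the direction of its share depends on the length used.

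**Figure D4:**
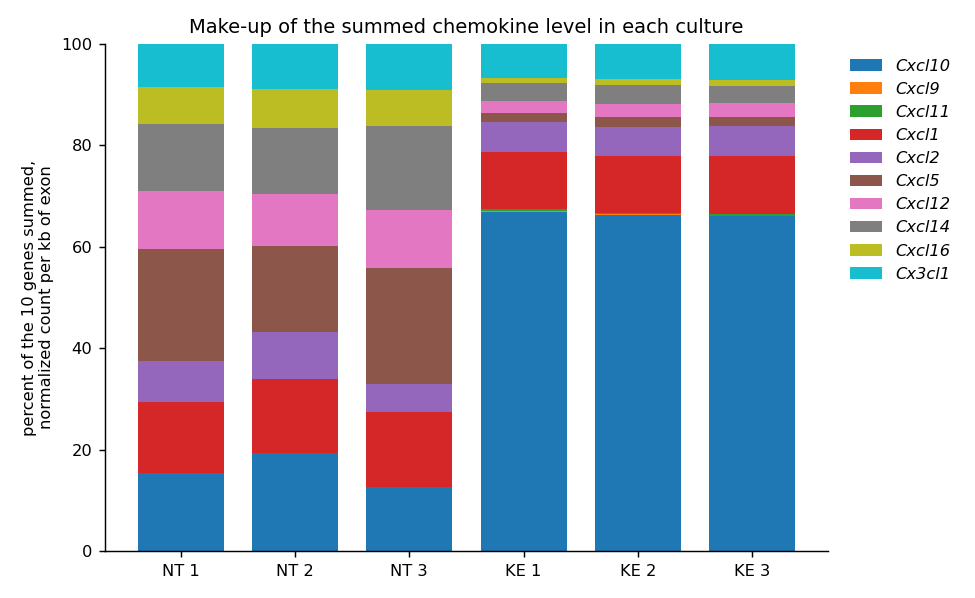
Share of each gene in the summed normalized count per kilobase of the 10 chemokine genes, in each of the 3 NT and 3 KE cultures. Cxcl10 takes 66.5% on average in KE and 15.7% in NT.

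On chromosome 5, the tested CXC chemokine genes of one group differed in direction, and those of the other were all upregulated. Cxcl5, Ppbp, Pf4, Cxcl3, Cxcl15, Cxcl1 and Cxcl2 lie in this order on the plus strand of chromosome 5 within 146.6 kb, from 90907186 to 91053797 of GRCm39. Cxcl5, at one end of this stretch, was downregulated, and Cxcl1 and Cxcl2, next to each other at the other end, were upregulated. Pf4, platelet factor 4, which is also made by macrophages, was downregulated, with 498, 317 and 500.0 normalized counts in NT and 17.8, 22.4 and 17.1 in KE (log2FC -4.43, adjusted p = 4.3e-08 by limma). Ppbp, Cxcl3 and Cxcl15 did not pass the filter, and Cxcl15 is listed at 0 in all cultures. Cxcl9, Cxcl10 and Cxcl11 lie on the minus strand within 44.1 kb, from 92469206 to 92513344, and all 3 rose. Cxcl9 and Cxcl11 passed the filter only through their KE values, so nothing is read from the shared direction. Of the 6 other CXC chemokine genes, Pf4 was the only one tested, and Cxcl13 was 7.66 to 14.9 in NT and at most 0.902 in KE.

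**Figure D5:**
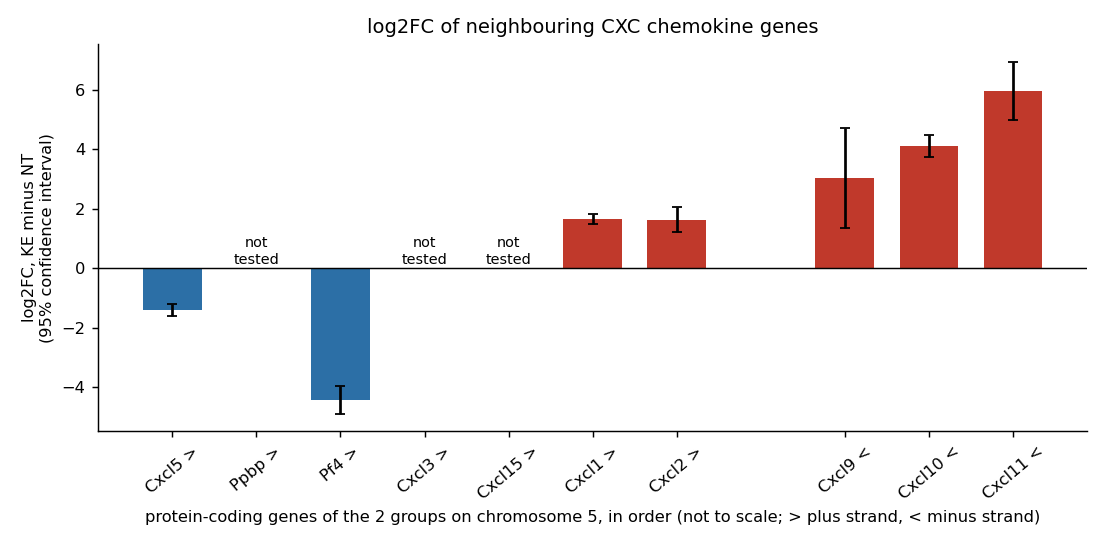
log2FC (KE minus NT, with 95% confidence interval) of the protein-coding genes in the 2 chemokine groups on chromosome 5, in chromosomal order and not to scale. In the left group Cxcl5 and Pf4 are below 0 and Cxcl1 and Cxcl2 above 0, and in the right group all 3 genes are above 0.

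Of 10 chemokine receptor genes, 5 passed the filter and were tested by limma, of which 3 were downregulated, 0 were upregulated and 2 were not called. At an unadjusted p under 0.05, the number upregulated was also 0. Of all tested genes, 25.3% were upregulated and 26.0% were downregulated, and with 5 receptors tested nothing is read from these counts. Cx3cr1, the fractalkine receptor and a microglia marker, was 181, 305 and 170.3 in KE and 3266, 3505 and 3237 in NT (log2FC -3.97). The ligand thus rose while its receptor fell, along with all other listed markers of microglia and macrophages. Cxcr4, the receptor of Cxcl12, was 187 to 198 in KE and 256 to 298 in NT (log2FC -0.52, adjusted p = 0.0026 by limma). Gpr35, the other downregulated gene, has been proposed as a receptor of Cxcl17, which is not among the 10 genes, and had a log2FC of -1.22. Ackr3, the scavenger of Cxcl12 and Cxcl11, and Ackr1, an atypical receptor that binds many chemokines, had log2FC of -0.09 and -0.30 and were not called. Cxcr3 and Cxcr2 were hardly detected, with Cxcr3 at 6.20 to 7.92 in NT and 0 to 2.50 in KE, and Cxcr2 at 1.04 or less in every culture. Cxcr1 is listed at 0 throughout, and Cxcr6 was at most 5.42.

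Of 10 genes for proteases and cofactors that cut chemokines, 7 were tested, with 1 upregulated and 4 downregulated, against 25.3% and 26.0% of all tested genes. Mmp12, a protease of macrophages, had the lowest log2FC of the list at -2.21, followed by the gelatinase gene Mmp2 at -0.58. Adam10 and Adam17, which cut Cx3cl1 and Cxcl16, fell by 0.33 and 0.15 on the log2 scale. Rhbdf1, a partner of Adam17, rose by 0.23.

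Among 13 genes of inducing cytokines and their receptors, 11 were tested, with 3 upregulated and 6 downregulated, beside 25.3% and 26.0% over all tested genes. Ifnb1, which encodes interferon beta, was 233, 198 and 235 in KE and is listed at 0 for each NT culture, so that it passed the filter only through its KE values. The interferon receptor gene Ifnar2 (log2FC 0.51) and the TNF receptor gene Tnfrsf1a (0.26) were also upregulated. Other receptor genes of the list, Ifnar1 (-0.27), Ifngr1 (-0.30) and Tnfrsf1b (-0.83), were downregulated. Tnf (-3.60), Il1a (-2.90) and Il1b (-2.37), whose products act through NF-kappaB, were the most downregulated of the list. Ifng, a strong inducer of Cxcl9, is listed at 0 in all cultures.

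Of 20 genes for transcription factors and inhibitors that act upstream of the chemokines, all were tested, and 15 rose while 3 fell, where 25.3% and 26.0% of all tested genes did (median log2FC 0.32, against 0.0018 over all tested genes). The interferon factors Irf7 (log2FC 3.81), Stat2 (1.68), Irf1 (1.33) and Irf9 (0.87) were higher in KE, and Irf3 (-0.22) was not called. Among NF-kappaB subunits, Relb (0.62), Nfkb2 (0.31) and Rela (0.26) were upregulated, Rel (-0.98) was downregulated and Nfkb1 (0.17) was not called. The inhibitors Socs1 (1.31), Tnfaip3 (1.13) and Nfkbia (0.24) were also upregulated, as was Nfkbiz (0.34), which encodes a nuclear cofactor of NF-kappaB. Zfp36, whose product destabilizes mRNAs such as that of Cxcl1, rose by 0.57. Irf8 (-2.78), a factor of microglia and macrophages, and Socs3 (-0.50) were downregulated.

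Of 18 genes of CC chemokines, which attract monocytes and lymphocytes, 13 were tested. Of these, 4 rose and 6 fell (median log2FC -0.73), where 25.3% and 26.0% of all tested genes did. The highest were Ccl7 (1.46), Ccl5 (1.33) and Ccl2 (1.00), and the lowest were Ccl6 (-4.56), Ccl9 (-4.21) and Ccl12 (-4.10). Whether this list differs from the 10 genes was not tested.

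The genes whose pattern over the 6 cultures was most like that of Cxcl11, the gene of the 10 with the highest log2FC, were Gm43302, Ly6a and Gm3776. Their Euclidean distances on centered log2 values were 0.70, 0.78 and 1.33. Those most like Cxcl5, the gene with the lowest log2FC, were Mtus1, Eya4 and Kif14, at distances of 0.14, 0.18 and 0.22.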

How the data were processed

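RNA-seq was compared between 3 KE and 3 NT cultures, grouped by the sample titles. The authors deposited a normalized signal per gene and culture, that is, Salmon gene counts divided by DESeq2 factors. The submitters' processing notes name Trim Galore, STAR, Salmon, DESeq2 and GRCh38, a human build, although the gene identifiers are those of mouse. The methods give GRCm39 with Gencode vM28 for mouse, and an adjustment for unnamed batches. They describe the hippocampus and spheroid samples there, and name the astrocyte data for a fold-change cutoff. No batch was modelled here. Normalization by such factors presumes that most genes do not change, whereas 51.3% of the tested genes were called here. Depth was approximated as the total divided by the most frequent low value. Low values were near its whole multiples (tolerance 0.1) in only 72.9% to 75.9% of cases, so reads were not recovered and count models were not applied.

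Genes averaging 10 or more were tested on log2(signal + 1), using limma 3.58.1 (R 4.3.3) with a term for group and a trended variance. Two-sided p-values received Benjamini-Hochberg adjustment across all tested genes. For low genes, log2FC depends on the pseudocount. Coordinates and lengths came from Gencode vM39 on GRCm39, in which 54749 of the 55357 identifiers were found. The fit was tested on simulated data. The 10 genes, the lists and the ratios were chosen with earlier results of these data known, and support nothing by themselves. All 10 genes were named, along with tested genes of the receptor, other CXC and upstream lists, and at most the 3 highest and 3 lowest log2FC among called genes of each other list. Outside this rule, Ifng, Ifnar1, Ifngr1, Tnfrsf1b and untested receptors and CXC chemokines were named after their values were seen. Alternatives were other pseudocounts and filters, quantile normalization, scaling to the 75th percentile, no trend, the replicate number as a block, other lengths and leaving out each culture. Protein sequences were not analysed here, and 1 gene of the upstream list is not reported here by name.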

Additional observations from a re-analysis of the deposited data

How the results depend on the processing

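Over the alternatives run, 137 of 139 values of log2FC for the 10 genes had the direction of the reported value and fell on the same side of the threshold. The exceptions were those of Cxcl14, which was not called in any setting and ranged from -0.076 to 0.0062 on the log2 scale when single cultures were left out, with 0.0032 without KE replicate 3 and 0.0062 without NT replicate 3. Over the settings, 5 to 6 chemokine genes were upregulated and 2 were downregulated. The number of upregulated receptors was 0 in every setting. The number of downregulated receptors, reported as 3, was 2 with a mean of at least 50, and 4 with no filter or without the trend. With a mean of at least 50, Cxcl9 was not tested. With the replicate number as a block, 6 of the 10 genes were upregulated and 2 downregulated, and the log2FC of Cxcl10 was 4.10. Same-numbered KE and NT cultures had correlations of deviations across genes of 0.0589 to 0.0664, against -0.0499 to -0.0105 for other pairs. Each culture correlated best with its own number. The sources do not say whether same-numbered cultures were prepared together, and these small correlations cannot decide it. The main fit did not use the numbers, and the block is given beside it. The block moved the upregulated genes overall from 3870 to 3967 and the downregulated ones from 3974 to 4079.

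Shares in the summed level depended on the length used, by construction. Without length scaling, Cxcl10 made up 58.8% in KE and 10.7% in NT, and Cxcl12 8.38% and 27.9%. Per kilobase of the canonical transcript, a setting chosen after seeing the data, Cxcl10 made up 71.6% and 20.6%, and Cxcl12 1.98% in KE. Depth limits Cxcl11, whose NT values were at or near what a few reads are worth, and Cxcl9 in NT replicates 1 and 2, whereas Cxcl9 was 9.59 in NT replicate 3, where 1 read is worth about 0.952.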
